A study of Homo sapiens with 6 samples.

Results

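Peaks of open chromatin on unplaced and unlocalized scaffolds were examined in 6 ATAC-seq libraries of NCI-H1703, an established human cell line labelled as lung squamous cell carcinoma (LUSC). ATAC-seq (assay for transposase-accessible chromatin with sequencing) uses a transposase that cuts and tags DNA where chromatin is open. The members were all rows of the 6 deposited peak lists whose sequence name was not 1 to 22, X, Y or MT. There were 963 such peaks of 880352 in all (0.109%), on 64 scaffolds of GRCh38. Merging them over the libraries at an overlap of at least 1 bp gave 464 regions of 507904 in all. The lists ran up to an unadjusted p-value of 0.00987 from the authors' peak calling, so they hold many weak peaks. A false discovery rate (FDR, the authors' adjusted p-value) of at most 1e-05 was met by 46.8% of scaffold peaks in control replicate 2. In the other libraries it was met by 22.2% to 24.6%. Per the labels, 3 libraries came from cells with silenced DLGAP1-AS2, a long non-coding RNA, and 3 from control cells of the same line. The libraries are titled ASO and NC, abbreviations that the labels do not spell out. Nothing in the labels says that the libraries of a group came from separate cultures, so the spread between them may be technical.

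A genome assembly holds, beside its chromosomes, pieces that could not be put in order. An unlocalized scaffold is assigned to a chromosome but has no position on it, and an unplaced scaffold is assigned to none. Such pieces are rich in DNA that is hard to assemble: satellite repeats near centromeres, recent segmental duplications and the tandem ribosomal RNA genes, whose transcription by RNA polymerase I forms the nucleolus. Reads from a sequence with near-identical copies elsewhere cannot be placed with certainty. How such reads were treated is not given in the sources used here, so the height of a scaffold peak may stand for several copies of a sequence. The gene table used here does not name scaffolds, and the genes under these peaks were not analysed here.

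The libraries differed in depth. The smallest background coverage behind any peak, computed from the authors' height and fold enrichment as (height + 1) / fold enrichment − 1, stands in for depth. It was 0.237 in silenced replicate 3, 0.464 in control replicate 2 and between 0.369 and 0.402 in the other 4 libraries. Read totals are not given, so depth in reads is unknown. Of 8 markers of squamous cells fixed for this check, SOX2 and S100A2 had a peak no farther than 1 kb from an end of the gene in all 6 libraries, TP63 in 4 and KRT6A in none. The counts open in all 6 libraries were 3 of 4 markers of lung adenocarcinoma, 1 of 4 neuroendocrine, 3 of 4 stromal and 0 of 3 leukocyte markers. The share of all genes with such a peak is not given here, so these counts cannot be read as a cell type. Most squamous markers thus had no recurrent peak near a gene end, and the cells are called here by the name of the line.

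The first comparison asked whether the number or share of scaffold peaks differed between silenced and control cells. The silenced libraries held 171, 183 and 134 scaffold peaks (replicates 1 to 3) and the control libraries 191, 111 and 173. The lowest numbers were in silenced replicate 3 and control replicate 2, 1 library of each group, and the groups overlapped. The silenced mean was 163 ± 25.5 (SD, n = 3) and the control mean 158 ± 42.0 (SD, n = 3). That difference was smaller than the replicate spread (p = 0.9 by a two-sided exact permutation test, or 1 after adjustment over 5 tests). With 3 libraries against 3 this test cannot go below 0.1. As a share of all peaks in a list, scaffold peaks made up 0.105%, 0.109% and 0.110% of the silenced lists (replicates 1 to 3) and 0.112%, 0.121% and 0.104% of the control lists. The share thus stayed between 0.104% and 0.121% while the lists held 91457 to 171073 peaks. The 95% Wilson intervals, which cover counting error only, ran from 0.0907% to 0.122% in silenced replicate 1 and from 0.101% to 0.146% in control replicate 2, and so overlapped. The mean share for silenced cells was 0.108% ± 0.00251 (SD, n = 3), and for control cells it was 0.112% ± 0.00856 (SD, n = 3) (two-sided exact permutation p = 0.5, adjusted p = 1).

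Scaffold peaks covered 49.5, 53.3 and 37.3 kb in the silenced libraries (replicates 1 to 3) and 54.7, 36.7 and 52.2 kb in the control libraries. The difference of the means was −1.13 kb (silenced minus control; two-sided exact permutation p = 0.8, adjusted p = 1), and it turned positive when any of silenced replicate 3 (3.55 kb), control replicate 1 (2.30 kb) or control replicate 3 (1.03 kb) was left out. The median height was 4 in every library but control replicate 2, where it was 9 (two-sided exact permutation p = 1). The difference of the group means, −1.67, was −2 with lists of equal length and −1.33 without peaks lower than 4, each with an exact permutation p of 0.1, the smallest that 3 against 3 allows. Control replicate 2 also stood apart on the chromosomes, with a median height of 8 against 3 or 4 in the others. Its list held few low peaks: 99.1% of its scaffold peaks had a height of at least 4, against 52.0% to 58.2% in the other libraries. Over the chromosome regions called by all 6 libraries its median height was 19, against 10 to 18 in the others. Median lengths were 209, 219 and 234 bp in the silenced libraries (replicates 1 to 3) and 212, 271 and 247 bp in the control libraries, with overlapping groups (difference −22.7 bp, two-sided exact permutation p = 0.3, adjusted p = 1).

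The peaks were spread unevenly over the scaffolds in number. Scaffold lengths were not used here, so peak density was not compared. The 5 scaffolds with the most peaks, GL000205.2 (88 peaks over the 6 lists), KI270733.1 (74), GL000195.1 (70), GL000225.1 (69) and GL000194.1 (57), held 37.2% of all scaffold peaks. GL000205.2, KI270733.1, GL000225.1 and GL000194.1 are unlocalized and GL000195.1 is unplaced. Each of the 6 libraries held a peak somewhere on 25 scaffolds, not always at the same place. On 35 scaffolds 2 to 5 libraries held a peak, and on 4 a single library did. The 30 unlocalized scaffolds held 529 peaks with a median length of 230 bp and a median height of 5. The 34 unplaced ones held 434 peaks with a median length of 229 bp and a median height of 4. In both classes 63.8% of the regions were called by 1 library, and regions called by all 6 made up 8.66% of the unlocalized and 9.52% of the unplaced regions.

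**Figure D1:**
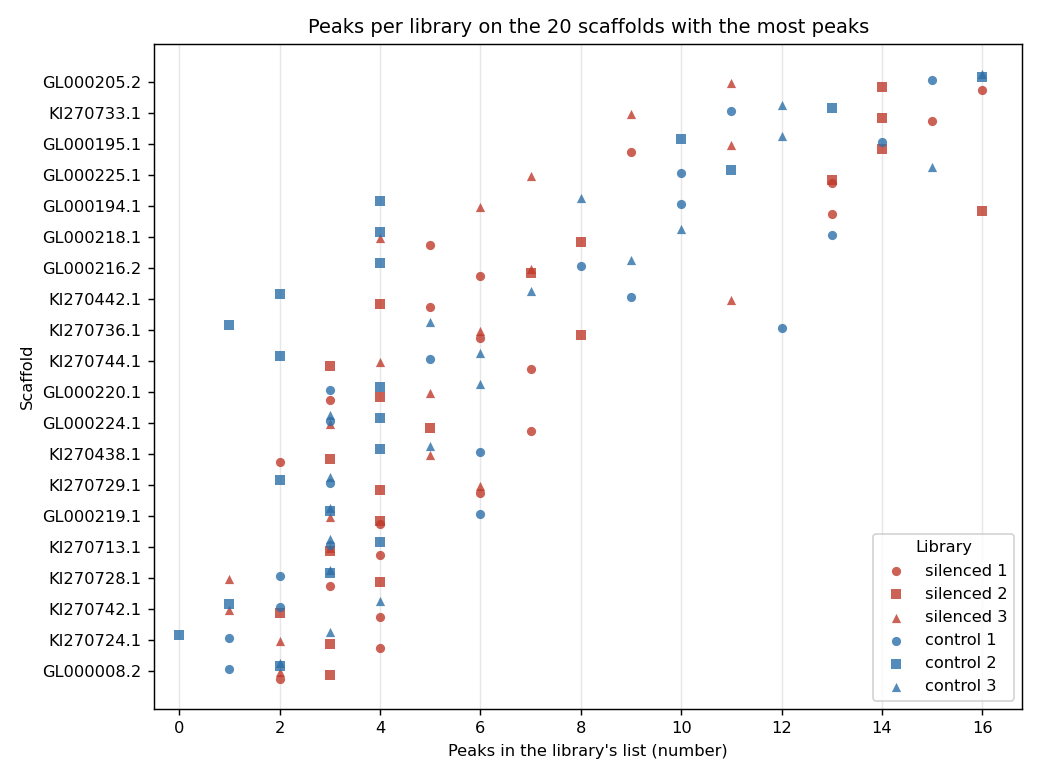
Number of peaks in each library's list (horizontal axis) on the 20 scaffolds with the most peaks (vertical axis); each point is 1 library, coloured by group and shaped by replicate number. GL000205.2 carried 11 to 16 peaks in every library, and silenced and control points are intermixed on all scaffolds shown but KI270729.1.

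On GL000205.2 the silenced libraries held 16, 14 and 11 peaks (replicates 1 to 3) and the control libraries 15, 16 and 16. The counts on this scaffold thus lay between 14 and 16 in every library but silenced replicate 3, although the lists differed in length. GL000194.1 varied more, with 13, 16 and 6 peaks in silenced and 10, 4 and 8 in control replicates 1, 2 and 3. The lowest values again came from silenced replicate 3 and control replicate 2. KI270729.1, an unlocalized scaffold, was the 1 scaffold of 64 on which the groups did not overlap, with 6, 4 and 6 peaks in silenced and 3, 2 and 3 in control libraries; it was singled out after its values were seen. Of all 88 sequences with a peak, scaffolds and chromosomes together, 1.14% had every silenced count above every control count and 0% had every silenced count below, and KI270729.1 was the sequence behind the first share. None of its 10 regions was called in all 6 libraries, and its highest peak had a height of 9.

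The median height of scaffold peaks was 3, 3, 4, 5, 6 and 13 in regions called by 1, 2, 3, 4, 5 and 6 libraries. The heights overlapped: regions of a single library reached 22, and peaks in regions called by all 6 went down to 2. Of the 464 regions, 296 (63.8%) were called by 1 library, 58 by 2, 31 by 3, 16 by 4, 21 by 5 and 42 (9.05%) by all 6. On the chromosomes 74.1% of the regions were called by 1 library and 7.35% by all 6. The 296 scaffold regions of a single library had a median height of 3 and a median length of 200 bp, the shortest length in the lists, and 231 of them were no higher than 3. The peaks in regions called by all 6 libraries had a median height of 13 and a median length of 323 bp. Height and recurrence are linked through the limit for calling a peak, so this rise is a description. The 42 recurrent regions held 29.1% of all scaffold peaks.

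**Figure D2:**
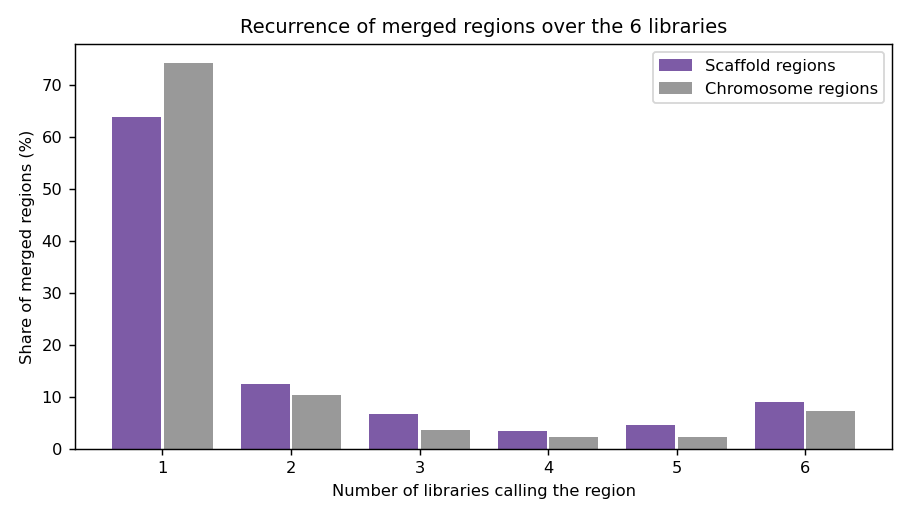
Share of merged regions (vertical axis, %) by the number of libraries that called them (horizontal axis), for scaffolds and chromosomes. Regions of a single library made up 63.8% of scaffold and 74.1% of chromosome regions, and regions called by all 6 made up 9.05% and 7.35%.

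A test over libraries did not separate the recurrence of scaffold peaks from that of chromosome peaks. The share of a library's scaffold peaks that lay in a region called by all 6 was 25.7%, 24.6% and 37.3% for silenced cells (replicates 1 to 3) and 23.6%, 43.2% and 27.7% for control cells. The same shares for chromosome peaks were 24.6%, 23.4%, 33.1%, 22.8%, 43.4% and 23.8%. Scaffold peaks had the higher share in 5 of the 6 libraries, by 1.86 ± 1.81 percentage points (SD over 6 libraries; two-sided exact sign-flip test, p = 0.0625, adjusted p = 0.0833 over 4 tests). The exception was control replicate 2. With that library left out and recurrence counted over the other 5, the difference was 5.01 points (exact sign-flip p = 0.0625, the smallest that 5 libraries allow). Regions called by all libraries enter the share of every library, so the differences are not independent and these p-values are descriptive.

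The 42 recurrent regions lay on 20 scaffolds, and 18 of them on GL000205.2 (8 regions), KI270733.1 (5) and GL000195.1 (5). Their mean heights ran from 3.5 to 94.5, with 7 regions at 40 or higher, 18 between 10 and 40 and 17 below 10. The merged regions were 261 to 1668 bp long, with a median of 535 bp.

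The highest region was on GL000205.2, from 88882 to 89207. Its heights were 105, 98 and 59 in the silenced libraries (replicates 1 to 3) and 95, 116 and 94 in the control libraries. The groups overlapped, and silenced replicate 3 was far below the other libraries. In each library the height lay among the top 0.376% to 0.748% of all peaks, and the fold enrichment was 15.3 to 19.97. A second region of this scaffold, from 87963 to 88267, ended 614 bp before it and had heights of 59, 66 and 51 in silenced and 60, 66 and 59 in control replicates 1, 2 and 3. Another, from 87074 to 87282 and 680 bp further upstream, was called in 3 libraries, with heights of 22 and 18 in silenced replicates 1 and 2 and 19 in control replicate 3. The background coverage behind this cluster was high, with medians of 4.29, 4.31 and 4.46 for the 3 regions in the order given, against at most 0.464 as the floor of any library. Other tall regions also exceeded this floor, with medians of 3.32 on GL000195.1 (30455 to 31018) and 5.28 on KI270713.1 (20942 to 22365). Whether the surroundings of the cluster were raised apart from its own peaks was not tested.

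The region of GL000205.2 from 140548 to 140998 lay on a lower background (median 1.26). Its heights were 53, 49 and 55 in silenced and 54, 59 and 51 in control replicates 1, 2 and 3. The 6 libraries were nearly level there, and its fold enrichment of 22.7 to 24.5 was above that of the highest region in every library. The region from 56117 to 56733 had heights of 35, 41 and 29 in silenced and 47, 48 and 43 in control replicates 1, 2 and 3. All silenced values there were below all control values.

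GL000195.1, an unplaced scaffold, carried the next highest region, from 30455 to 31018. Its heights were 93, 86 and 57 in silenced and 87, 113 and 83 in control replicates 1, 2 and 3. The groups overlapped, and silenced replicate 3 was again the lowest. A region of the same scaffold from 137460 to 138483 had heights of 24, 45 and 24 in silenced and 28, 28 and 33 in control replicates 1, 2 and 3, so that a silenced library was the highest. KI270713.1, an unlocalized scaffold, carried a broad region from 20942 to 22365. Its highest peak reached 82, 97 and 60 in silenced and 82, 99 and 89 in control replicates 1, 2 and 3, again with overlapping groups. Its peaks were between 306 and 1419 bp long: silenced replicate 3 and control replicate 2 each held 2 shorter peaks there, and the other 4 libraries 1 long peak.

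**Figure D3:**
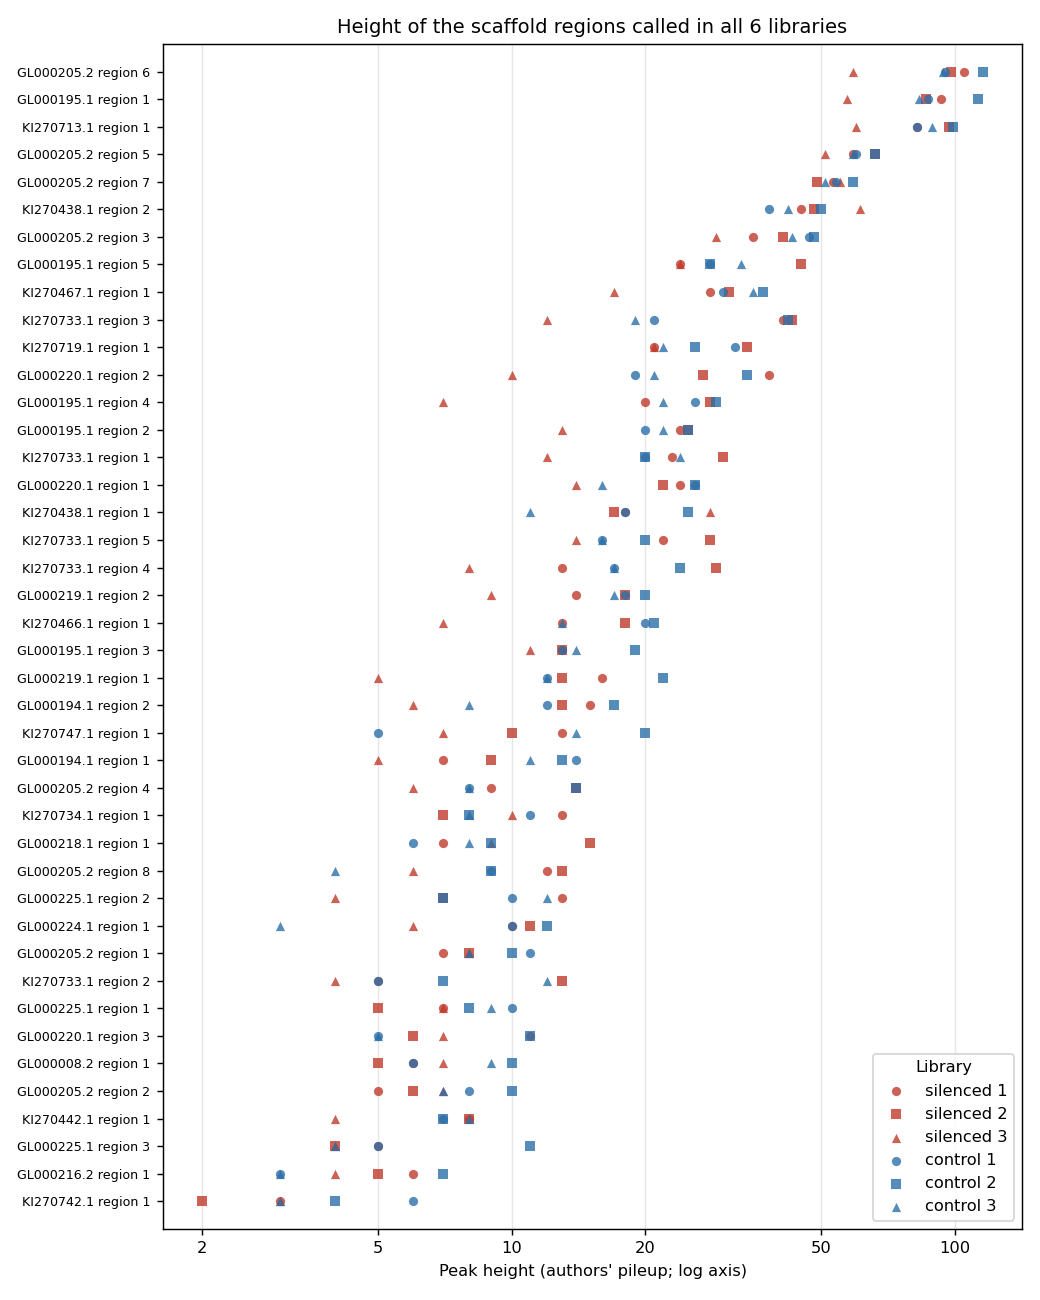
Height (horizontal axis, the authors' pileup on a log axis) in each library for the 42 scaffold regions called in all 6 libraries, ordered by mean height and numbered along each scaffold; each point is 1 library. Mean heights run from 3.5 to 94.5, and the point of silenced replicate 3 is the lowest on its own in 24 of the 42 regions.

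GL000220.1 and KI270733.1 are known to carry copies of the ribosomal RNA gene repeat. KI270733.1 had 20 regions, of which 5 were called by all 6 libraries and 5 by a single one, and its peaks had a median height of 15.5. Its highest recurrent region, from 134978 to 135264, had heights of 41, 43 and 12 in silenced and 21, 42 and 19 in control replicates 1, 2 and 3. The values fell into a high set of 3 libraries and a low set of 3 that cut across the groups. Its last recurrent region, from 168705 to 169124, had heights of 22, 28 and 14 in silenced and 16, 20 and 16 in control replicates 1, 2 and 3. GL000220.1 had 5 regions, of which 3 were called by all 6 libraries. The region from 119353 to 120239 had heights of 38, 27 and 10 in silenced and 19, 34 and 21 in control replicates 1, 2 and 3, and that from 7048 to 7927 had heights of 24, 22 and 14 and of 26, 26 and 16. In both regions of GL000220.1 the silenced and control values overlapped and silenced replicate 3 was the lowest. On KI270733.1 a stretch of 105012 bp without a peak in any library lay before the region that starts at 129940.

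Some unplaced scaffolds carried 1 region and nothing else. Scaffold lengths were not used here, so how far this reflects short scaffolds was not tested. On KI270467.1 the region from 2056 to 3723 held all 11 peaks of the scaffold, with heights of 28, 31 and 17 in silenced and 30, 37 and 35 in control replicates 1, 2 and 3. It contained the longest scaffold peak of any list, 1584 bp in silenced replicate 1. On KI270466.1 the region from 321 to 1233 had heights of 13, 18 and 7 in silenced and 20, 21 and 13 in control replicates 1, 2 and 3 and the groups overlapped. On KI270747.1 the region from 3414 to 3888 had heights of 13, 10 and 7 and of 5, 20 and 14, and each library called it as 1 peak. The control libraries thus held both the lowest and the highest value there.

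At the other end were scaffolds with many regions and little recurrence. GL000225.1 had 39 regions, the most of any scaffold, of which 28 (71.8%) were called by 1 library and 3 by all 6, and no peak was higher than 13. KI270736.1 had 27 regions, of which 21 were called by 1 library and none by all 6, and its highest peak had a height of 6. KI270442.1 (26 regions), GL000218.1 (27) and GL000216.2 (23) each had 1 region called by all 6. The median peak length on GL000225.1, KI270736.1, KI270442.1, GL000218.1 and GL000216.2 was 200 bp. The lowest recurrent regions of all were on KI270742.1 (3950 to 4461), with heights of 3, 2 and 3 in silenced and 6, 4 and 3 in control replicates 1, 2 and 3, on GL000216.2 (103 to 825), with heights of 6, 5 and 4 and of 3, 7 and 3, and on GL000225.1 (133616 to 133904), with heights of 5, 4 and 4 and of 5, 11 and 4. The KI270742.1 region sat near the smallest height in every list but that of control replicate 1, and the weakest FDR among its peaks was 0.595. For the GL000225.1 region, 39.0% to 51.9% of a library's peaks were at least as high.

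The remaining scaffolds with a region called by all 6 libraries were GL000008.2, GL000194.1, GL000219.1, GL000224.1, KI270719.1, KI270734.1 and KI270438.1. KI270719.1 carried the tallest of these outside KI270438.1, from 133667 to 133952, with heights of 21, 34 and 21 in silenced and 32, 26 and 22 in control replicates 1, 2 and 3. The groups overlapped there, and silenced replicate 3 tied with silenced replicate 1 as the lowest.

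Scaffold and chromosome peaks were then compared within each library, so that both came from the same depth. The part of depth that remains in these ratios was not tested. The median length of scaffold peaks was above that of chromosome peaks in 6 of 6 libraries. In silenced replicates 1, 2 and 3 the medians were 209, 219 and 234 bp against 206, 212 and 204 bp, and in control replicates 1, 2 and 3 they were 212, 271 and 247 bp against 211, 270 and 213 bp. The differences were small in 4 libraries and larger in silenced replicate 3 and control replicate 3. The mean log2 ratio was 0.08 ± 0.10 (SD over 6 libraries; two-sided exact sign-flip p = 0.031, the smallest that 6 libraries allow, adjusted p = 0.0625), which does not pass at 0.05. The sign turned with a filter on low peaks: the log2 ratio of lengths was −0.07 among peaks with a height of at least 4 (exact sign-flip p = 0.0625) and −0.17 among peaks with an FDR of at most 1e-05 (exact sign-flip p = 0.031). With lists of equal length the ratio was 0.00022 (exact sign-flip p = 1).

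The median fold enrichment was also higher on scaffolds in 6 of 6 libraries. It was 3.09, 3.47 and 3.59 on scaffolds against 2.92, 2.88 and 3.23 on chromosomes in silenced replicates 1, 2 and 3. In control replicates 1, 2 and 3 it was 3.01, 4.78 and 3.49 against 2.90, 4.44 and 2.92. The mean log2 ratio was 0.15 ± 0.09 (SD over 6 libraries; two-sided exact sign-flip p = 0.031, adjusted p = 0.0625 over 4 tests). This adjusted value also misses 0.05. The ratio was smaller, 0.06 among peaks with an FDR of at most 1e-05 (exact sign-flip p = 0.1875) and 0.07 among peaks with a height of at least 4 (exact sign-flip p = 0.125), and 0.14 with lists of equal length (exact sign-flip p = 0.031). The median height differed in 2 libraries only, silenced replicate 3 (4 against 3) and control replicate 2 (9 against 8), and gave a log2 ratio of 0.10 ± 0.17 (SD over 6 libraries; exact sign-flip p = 0.5, adjusted p = 0.5). That ratio turned to −0.08 at an FDR of at most 1e-05 (exact sign-flip p = 0.125).

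**Figure D4:**
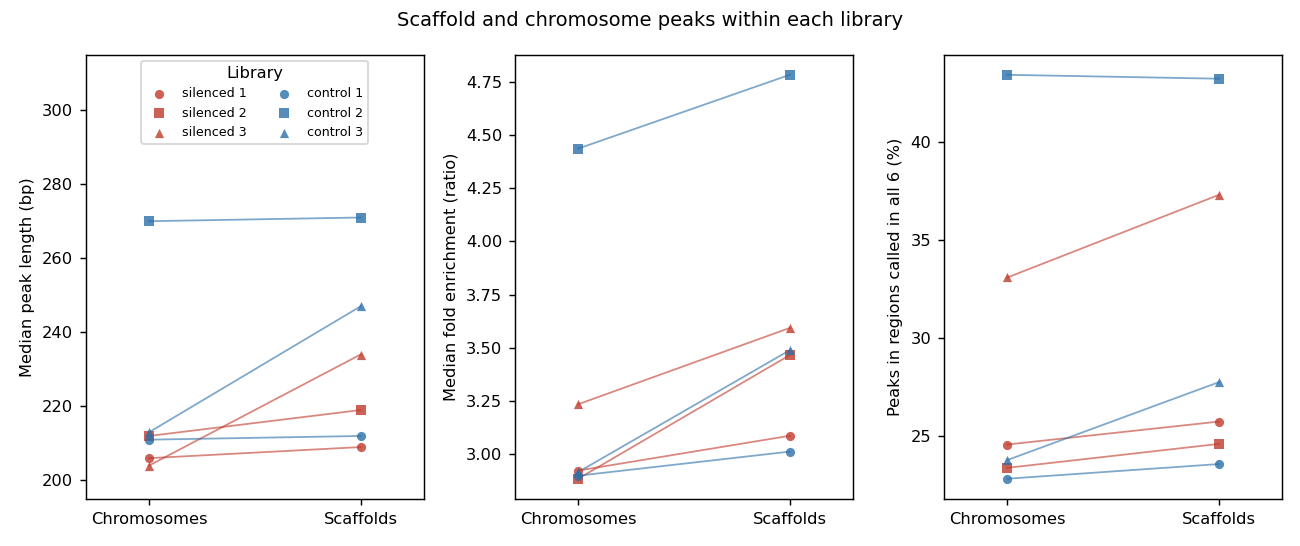
Median peak length (bp), median fold enrichment (ratio) and share of peaks in regions called by all 6 libraries (%), on chromosomes and on scaffolds; each line joins the 2 values of 1 library, and the vertical axes do not start at 0. Length and fold enrichment are higher on scaffolds in 6 of 6 libraries, by mean log2 ratios of 0.08 and 0.15.

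The effect of silencing on the 42 recurrent regions was examined through ranks, because no scaling between the lists is given. The fold enrichment of a region's strongest peak was ranked within each library among the 37326 regions called by all 6, scaffolds and chromosomes together, turned into a normal score and tested with limma. Of the 42 scaffold regions, 0 had an adjusted p-value under 0.05 (smallest 0.963, limma with Benjamini-Hochberg adjustment), where the share called over all regions was 0%. At an unadjusted p under 0.05 there were 3 (7.14%), against 4.68% of all regions tested. Scores were higher in silenced cells in 24 regions and lower in 18, with a median difference of 0.05 score units against 0.01 over all regions. In simulated data with 37326 regions, 200 regions were moved by 2 score units and another 200 by 1 unit in the same step. Of these, 61.5% were called at 2 units and 12% at 1 unit, so a shift of 1 unit would mostly have been missed. A shift in fewer regions was not simulated.

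The regions with the smallest p in favour of silenced cells were on KI270733.1 (168705 to 169124, score difference 0.59 ± 0.24, SE), on GL000205.2 (157404 to 157683, 0.90 ± 0.39) and on KI270438.1 (109223 to 109926, 0.48 ± 0.22), and the adjusted p (limma) was 0.963 for each. The GL000205.2 region had heights of 12, 13 and 6 in silenced and 9, 9 and 4 in control replicates 1, 2 and 3, which overlap. In the opposite direction were regions on GL000194.1 (69521 to 69990, −0.62 ± 0.34), KI270742.1 (−0.60 ± 0.52 for the region given above) and KI270466.1 (−0.34 ± 0.26), with adjusted p (limma) of 0.963, 0.964 and 0.964. The GL000194.1 region had heights of 7, 9 and 5 in silenced and 14, 13 and 11 in control replicates 1, 2 and 3, so that all silenced heights were below all control heights.

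Every silenced height was below every control height in 3 of the 42 regions, against 8.78% of all regions called by all 6 libraries, and every silenced height was above in 0, against 0.161%. Beside the GL000194.1 region and the GL000205.2 region from 56117 to 56733, the remaining one was on GL000225.1 (49434 to 49811), with heights of 7, 5 and 7 in silenced and 10, 8 and 9 in control replicates 1, 2 and 3. At 7.14% the share of scaffold regions was near the background. Silenced replicate 3 had the lowest background coverage and control replicate 2 the highest, and the part of coverage in this count was not tested. The mean silenced height was below the mean control height in 29 of 42 scaffold regions (69.0%) and in 82.7% of all regions. Without silenced replicate 3 it was below in 20 of 42 (47.6%) and in 56.6% of all, and without control replicate 2 in 27 of 42 (64.3%) and in 74.6% of all.

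Regions called in all libraries of 1 group and in none of the other were few. On scaffolds, 2 were called in the 3 silenced libraries only (0.431% of 464, against 0.131% of all merged regions) and 2 in the 3 control libraries only (0.431%, against 0.2%). Regions called by exactly 3 libraries, of whichever group, were also more frequent on scaffolds (6.68%) than on chromosomes (3.64%). With 3 libraries against 3, a single region cannot pass an exact test. The silenced-only regions were weak: that on GL000218.1 (13479 to 14035) had heights of 3, 2 and 3 in replicates 1, 2 and 3, and that on KI270736.1 (156238 to 156691) a height of 3 in each. Neither was left once peaks lower than 4 were removed. Leaving out silenced replicate 1, 2 or 3 raised the silenced-only count to 4, 5 or 9, and leaving out control replicate 1, 2 or 3 raised the control-only count to 4, 7 or 4; fewer libraries then had to share a call. The control-only region on GL000225.1 (61565 to 61888) had heights of 4, 7 and 7.

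The control-only region on KI270438.1, from 112275 to 112505, was much stronger. Its heights were 17, 16 and 13 in control replicates 1, 2 and 3, against a median of 5 for the mean height of the 1018 control-only regions of all sequences. Its weakest FDR was 3.50e-06, the second lowest among those 1018 regions, of which 4 reached an FDR of 1e-05 or less in each control library. It lay 2348 bp beyond another region of KI270438.1 that every library called, and the median background coverage behind it was 2.08.

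That neighbouring region, from 109223 to 109926, was highest in silenced replicate 3, the library of lowest coverage. Its heights were 45, 48 and 61 in silenced and 38, 50 and 42 in control replicates 1, 2 and 3. The other recurrent region of KI270438.1, from 103903 to 104462, had heights of 18, 17 and 28 in silenced and 18, 25 and 11 in control replicates 1, 2 and 3. In both, silenced replicate 3 was the highest library, at 1.37 and 1.57 times the mean of the other 5. Silenced replicate 3 was above the mean of the others in 4 of the 42 recurrent scaffold regions (9.52%) and in 4.60% of all; the other 2 were on GL000205.2 (140548 to 140998, 1.03 times) and KI270734.1 (133751 to 134253, 1.06 times). Among the 42 recurrent scaffold regions silenced replicate 3 was the highest library on its own in the 2 of KI270438.1. Over all 37326 recurrent regions it was so in 0.533%. It was the lowest on its own in 24 of the 42 (57.1%) and in 70.1% of all. Both recurrent KI270438.1 regions were singled out here after their values were seen. They share a scaffold and a library, so they are not independent of each other.

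**Figure D5:**
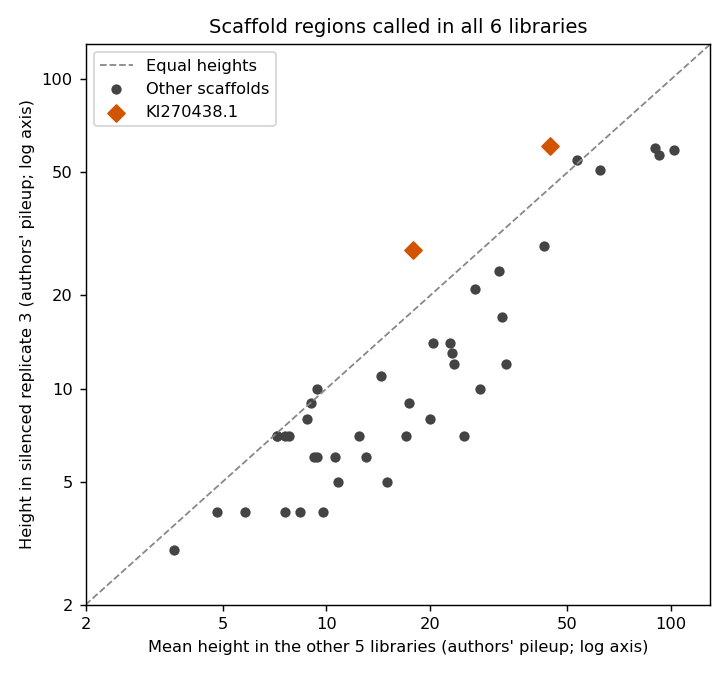
Height in silenced replicate 3 (vertical axis) against the mean height in the other 5 libraries (horizontal axis), both the authors' pileup on log axes, for the 42 scaffold regions called by all 6; the dashed line marks equal heights. Of the 42 regions 4 lie above the line, the 2 of KI270438.1 at 1.37 and 1.57 times the mean of the others and those of GL000205.2 (140548) and KI270734.1 at 1.03 and 1.06 times; a region of GL000218.1 lies on it, and the rest lie below.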

How the data were processed

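The members and lists described here were chosen with earlier results of these data known. The authors deposited 1 peak list per library, with a height (a pileup signal), a fold enrichment (a ratio), a p-value and an FDR for each peak, per the file headers. These values are the authors' own and served only for description, ranking and filtering inside a list. The submitters' processing notes name Trimmomatic 0.36, Bowtie2 2.2.6, Picard 2.8.2, MACS2 2.1.1, bedtools 2.25.0 and GRCh38, with no parameters. Whether read ends were shifted, and how duplicates and reads with several positions were treated, is not given in the sources used here. Each library began with 10000 to 50000 cells, per the labels' protocol. Positions count from 1, and no row was on MT.

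Lists were merged at 1 bp of overlap with pandas 2.3.3. Groups were compared with two-sided exact permutation tests, scaffolds and chromosomes with exact sign-flip tests over libraries, and ranks with limma 3.58.1 in R 4.3.3 (trended prior), adjusted by the Benjamini-Hochberg method. The rank step was tested on simulated data. Scaffold classes come from general knowledge of the assembly. Scaffolds named were those with a region called by all 6 libraries and the 5 with the most peaks. Regions named were the 10 highest and 3 lowest of those called by all 6, the 3 with the smallest limma p in each direction, those of 1 group only, and the longest and highest peak. Others were chosen after their values were seen. Alternatives were a stricter FDR (1e-05), lists of equal length (91457 peaks), a height of at least 4, windows of 200 bp around midpoints, ranks by height, a replicate block, and leaving out GL000205.2 or single libraries. Sequences of the regions were not analysed here.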

Additional observations from a re-analysis of the deposited data

How the results depend on the processing

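Signs of small differences turned with the filter. The difference in scaffold peaks per library (silenced minus control, 4.33 in the full lists) was −7.67 at an FDR of at most 1e-05, −1 with lists of equal length and −12 without peaks lower than 4. Without those low peaks the share differed by 0.00302 percentage points. For scaffolds against chromosomes, the log2 ratio of heights was −0.08 (−0.0840) and that of lengths −0.17 (−0.171) at an FDR of at most 1e-05, the ratio of lengths was −0.07 (−0.0692) at a height of at least 4, and the recurrence difference was −0.368 points at an FDR of at most 1e-05. The cause was not tested. Silenced-only regions numbered 0 under the stricter FDR, in equal lists and without peaks lower than 4, and 1 with 200 bp windows. Control-only regions numbered 1 under the stricter FDR and in equal lists. The rank comparison gave 0 scaffold regions under every alternative run, with 2 to 4 at an unadjusted p under 0.05.

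Leaving out 1 library at a time gave differences from −19.3 to 20.7 peaks (negative without control replicate 2 or silenced replicate 2, at −5.83), −0.00836 to 0.000171 points of the share (positive without control replicate 2), −6.73 to 3.55 kb, −2.5 to 0 in height and −38.3 to −8.83 bp in length. Scaffold against chromosome gave 0.0340 to 0.117 for height, 0.0556 to 0.0972 for length, 0.131 to 0.172 for fold enrichment and 1.45 to 5.01 points for recurrence. Silenced-only regions ran from 2 to 9 and control-only from 2 to 7. Exact permutation cannot pass 0.05 at this group size. For 17 named regions called by all 6 libraries, an alternative chosen after seeing the data left out each library in turn. The difference of mean heights (silenced minus control) changed sign in 3: on KI270733.1 (134978) from 4.67 to −0.833 and on GL000195.1 (137460) from 1.33 to −5.67, both without silenced replicate 2, and on GL000205.2 (87963) from −3 to 0.833 without silenced replicate 3. On GL000216.2 (103) it went from 0.667 to 0 without control replicate 1 or 3. In the other 13 the sign stayed.

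Pairing by replicate number (replicate block) left the mean differences as they were, for example 4.33 peaks, and gave 0 rank calls. Same-numbered libraries did not deviate together (correlations −0.00205, 0.00231 and −0.00826 across regions, which are not independent), so the numbers were not taken to pair libraries.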

Other observations

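KI270442.1 also had its highest count in silenced replicate 3, the library of lowest coverage: 5, 4 and 11 peaks in silenced and 9, 2 and 7 in control replicates 1, 2 and 3. Of its 26 regions 20 were called by a single library. Its 1 region called by all 6, from 231291 to 231679, had heights of 8, 8 and 4 in silenced and 7, 7 and 8 in control replicates 1, 2 and 3, so the higher count of silenced replicate 3 did not extend to the height of the shared region. No test was run on this scaffold, and it was singled out after its values were seen.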
